A study of Homo sapiens with 35 samples.

Results

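Collagen genes encode the chains of the most abundant proteins of the extracellular matrix. The members described here are the protein-coding genes on chromosomes 1 to 22 whose symbol is COL, a number, A and a number: 42 of 19126 autosomal protein-coding genes. Their chromatin was read from a single list of ATAC-seq peaks, the stretches of DNA that a transposase can reach, in blood progenitors grown from H1 cells; H1 is a widely used line of human embryonic stem cells. The labels describe 35 libraries, in which the progenitors were differentiated for 10 to 20 days: 12 of a line called doxee17 with doxycycline and 11 of doxee17 without it (batch 1), and 12 of untreated H1 (batch 2). The design text counts 44 libraries and ties doxycycline to ectopic MYC; how many clones doxee17 stands for was not stated. The list gives 1 value per peak and none per library, so doxycycline-treated cells could not be set against untreated cells, and no value below has a replicate error.

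A collagen molecule is a triple helix of chains built on a regular repeat of glycine. Fibrillar collagens build the cables of bone, skin, tendon and cartilage, and fibroblasts, osteoblasts and chondrocytes are their main makers. Type IV collagen forms the network of basement membranes under endothelium and epithelium. Other types sit on fibrils (FACIT, fibril-associated collagens with interrupted triple helices), form beaded microfibrils (type VI) or short-chain networks (types VIII and X), or span the cell membrane. Blood cells meet collagen mostly as a ligand, through receptors such as GP6 and the integrins on platelets.

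Each peak has a fold enrichment at its summit, the position of highest signal, over the background of the peak caller; this is the authors' value. A background of 93.5 overlapping reads or fragments, inferred from the folds and p-values, sets the counting intervals given here; they cover counting error only. A gene's end value is the highest fold among summits within 1 kb of either end of its annotated span, and 0 where there is none. Together, 1270 distinct peaks lay at the ends of collagen genes (46), over their bodies (690) or in the 50 kb on either side (534), with median folds of 9.10, 3.23 and 3.79. Over all autosomes, peaks at coding gene ends had a median of 20.7-fold and peaks over coding gene bodies 3.20-fold.

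The DNA before the starts of a few members shows the range of sequence behind these values. Shown are COL23A1, with the highest summit within 1 kb of the 5′ end among the 30 members of known strand, 2 starts of COL18A1 that differ in peak strength, a start with a peak but almost no CpG (COL10A1), a start without a peak (COL17A1), and the intervals between the head-to-head genes of type IV. The first 5 are the 250 bases before an annotated start, and the last 2 the sequence between the gene ends. Sequences are from RefSeq (GRCh38.p14), 5′ to 3′ on the strand named, with CpG dinucleotides in capitals.
COL23A1, chr5:178590394-178590643, minus strand: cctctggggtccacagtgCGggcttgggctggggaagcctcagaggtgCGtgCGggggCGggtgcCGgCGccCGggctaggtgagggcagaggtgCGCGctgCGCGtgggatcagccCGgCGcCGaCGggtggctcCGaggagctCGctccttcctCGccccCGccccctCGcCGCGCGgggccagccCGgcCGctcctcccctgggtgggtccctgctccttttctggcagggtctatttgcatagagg
COL18A1 long start, chr21:45404915-45405164, plus strand: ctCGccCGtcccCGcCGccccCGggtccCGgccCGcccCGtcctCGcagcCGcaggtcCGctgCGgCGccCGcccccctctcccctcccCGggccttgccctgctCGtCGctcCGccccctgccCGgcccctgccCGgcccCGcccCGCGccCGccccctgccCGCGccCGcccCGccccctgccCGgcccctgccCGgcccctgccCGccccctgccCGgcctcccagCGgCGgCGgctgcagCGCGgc
COL18A1 short start, chr21:45455272-45455521, plus strand: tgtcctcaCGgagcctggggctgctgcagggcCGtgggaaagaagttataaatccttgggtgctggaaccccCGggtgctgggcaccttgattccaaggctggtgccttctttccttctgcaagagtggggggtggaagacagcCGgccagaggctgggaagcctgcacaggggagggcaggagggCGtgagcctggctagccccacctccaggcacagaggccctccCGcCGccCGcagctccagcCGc
COL10A1, chr6:116217145-116217394, minus strand: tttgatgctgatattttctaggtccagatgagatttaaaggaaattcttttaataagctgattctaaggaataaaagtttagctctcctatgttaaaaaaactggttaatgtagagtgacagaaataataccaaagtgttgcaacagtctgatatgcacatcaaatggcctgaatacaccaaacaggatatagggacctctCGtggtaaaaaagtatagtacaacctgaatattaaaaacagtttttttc
COL17A1, chr10:104085881-104086130, minus strand: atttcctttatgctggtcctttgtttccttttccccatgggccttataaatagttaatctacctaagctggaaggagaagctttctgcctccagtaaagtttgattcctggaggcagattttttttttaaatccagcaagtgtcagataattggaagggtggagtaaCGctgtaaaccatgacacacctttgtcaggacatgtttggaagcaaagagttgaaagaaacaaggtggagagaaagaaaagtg
COL4A1 to COL4A2, chr13:110307158-110307283, plus strand: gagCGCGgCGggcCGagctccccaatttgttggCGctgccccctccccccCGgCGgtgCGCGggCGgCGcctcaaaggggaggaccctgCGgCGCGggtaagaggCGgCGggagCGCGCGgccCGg
COL4A4 to COL4A3, chr2:227164489-227164623, plus strand: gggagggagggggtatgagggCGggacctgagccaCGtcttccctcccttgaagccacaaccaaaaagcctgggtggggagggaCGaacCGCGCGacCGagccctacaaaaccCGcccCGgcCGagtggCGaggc
The 250 bases before the COL23A1 start hold 25 CpGs, and those before the long COL18A1 start hold 37. The short COL18A1 start has 9, and COL10A1 and COL17A1 have 1 each. The 126 bp between COL4A1 and COL4A2 hold 20, and the 135 bp between COL4A4 and COL4A3 hold 11.

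Within 1 kb, collagen genes had a peak at an end as often as other genes, but the peaks were weak, mainly in genes of 20 to 200 kb. A summit lay within 1 kb of an end in 35 of the 42 (83.3%), against 83.7% of all autosomal coding genes, so the share with a peak is at the background. The median end value was 7.88-fold for collagen genes (interquartile range 3.15 to 18.9) and 46.9-fold for all genes (3.95 to 115). A value of 10-fold or more was reached by 20 of 42 (47.6%), against a background of 67.1%. Only COL5A2, COL1A1, COL11A2 and COL23A1 exceeded the median of all genes. By gene length, the gap was widest from 20 to 200 kb. At 20 to 50 kb, 10 collagen genes had a median of 12.2-fold and 4579 others 73.3-fold. At 50 to 100 kb, 6 had 0 and 2795 others 65.8-fold. At 100 to 200 kb, 12 had 6.33-fold and 1858 others 51.6-fold. Above 200 kb, 12 had 22.4-fold and 1328 others 30.4-fold, and 5 of the 12 exceeded 30.4-fold. Under 20 kb, 2 had 31.8-fold and 8524 others 24.9-fold. These are descriptions of a single list and carry no test.

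The gap was smaller once peaks at the ends of neighbouring genes were set aside. Where the strongest end summit also lay at an end of another coding gene, as in 6 of the 35 collagen genes with a summit (background 22.7%), the peak cannot be given to either gene. COL5A2 shared its summit with WDR75 and COL7A1 with UCN2. COL4A1 and COL4A2 shared theirs with each other, as did COL4A3 and COL4A4, so those peaks lay at collagen genes only. With all genes that share their strongest summit left out, the type IV pairs included, the median was 8.92-fold for 36 collagen genes and 26.4-fold for all remaining genes. With the shared summits themselves left out and the genes kept, it was 6.26-fold and 11.2-fold.

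Fibrillar collagens spanned the widest range at their ends. The 11 genes had a median of 27.3-fold, and 3 exceeded the median of all genes. The highest value, 155.7-fold at COL5A2 (95% Poisson interval 153.2 to 158.2), belongs to a peak of 1917 bp on chromosome 2 (189440350 to 189442266) whose summit lay 175 bp outside the gene and also within 1 kb of an end of WDR75, a ribosome biogenesis factor. COL1A1, a chain of type I collagen, had a 60.6-fold peak of 2207 bp whose summit lay 879 bp inside its higher-coordinate end (chromosome 17, 50199513 to 50201719), and 11.6-fold at the other end. COL1A2, which encodes its partner chain, had 31.8-fold at its lower-coordinate end, with the summit 672 bp inside the gene. The 58.9-fold value of COL11A2, a cartilage chain, came from its 3′ end, with the summit 996 bp outside; its 5′ peak, shared with the nuclear receptor gene RXRB, had 8.93-fold.

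Among the other fibrillar genes, COL24A1 had 31.7-fold, 198 bp inside its 5′ end, and COL5A1, a chain that limits fibril width, 27.3-fold, 145 bp before its 5′ end. COL11A1 had 7.04-fold, COL5A3 5.49-fold and COL27A1 2.95-fold. The start that the promoter table gives for COL27A1 lies inside the annotated gene, and a 32.7-fold peak had its summit 99 bp before it. COL3A1, a chain of the fibrils of vessels and skin, and COL2A1, the cartilage chain, had no summit at an end. At COL2A1, a 16.3-fold peak of 4761 bp had its summit 1.87 kb inside the gene. At COL3A1, no peak reached within 1 kb of either end and the strongest of 5 body peaks had 5.37-fold.

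The genes of the basement membrane zone, types IV, VII, XV and XVIII, all had a peak at an end, and each was below the median of all genes. The 7 ranged from 4.46-fold to 18.9-fold with a median of 7.88-fold. COL4A1 and COL4A2, the ubiquitous type IV chains, lie head to head on chromosome 13 with 126 bp between them. A single peak of 3396 bp and 7.88-fold (interval 7.33 to 8.47; 110305869 to 110309264) covered both starts, with its summit 1 bp inside COL4A1. COL4A3 and COL4A4, type IV chains known from the kidney glomerulus, are arranged the same way on chromosome 2 and shared a peak of 1743 bp and 4.46-fold (interval 4.05 to 4.91; 227163435 to 227165177), with its summit 421 bp inside COL4A4. The intervals of these 2 shared peaks do not overlap, but they cover counting error only, and the difference between the pairs was not tested.

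COL18A1, the source of the angiogenesis inhibitor endostatin, had 18.9-fold in a 4380 bp peak whose summit lay 14 bp from its long start (chromosome 21, 45403688 to 45408067). Its short start had 3.27-fold, in a peak of 472 bp. COL15A1, the related multiplexin, had 10.3-fold at its 5′ end and 1.63-fold at its 3′ end. COL7A1, the collagen of the anchoring fibrils of skin, had 16.2-fold at its 3′ end, in a peak shared with UCN2, and 7.07-fold at its 5′ end.

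Type VI genes, which build beaded microfibrils, had a median of 12.2-fold: COL6A1 had 25.2-fold, COL6A5 16.05-fold, COL6A2 12.2-fold and COL6A6 4.24-fold, while COL6A3 had no peak within 1 kb of an end. FACIT genes were low by summit, with a median of 3.87-fold over 10, and only COL19A1 (41.3-fold) and COL14A1 (31.97-fold) exceeded 10-fold. COL9A3 had 7.82-fold, COL22A1 5.11-fold, COL12A1 4.78-fold, COL9A2 2.95-fold, COL21A1 2.19-fold and COL20A1 1.78-fold; COL9A1 and COL16A1 had no summit. At COL9A2, which encodes a cartilage chain, a 78.8-fold peak of 5925 bp covered its 5′ end, with the summit 1.84 kb inside the gene (chromosome 1, 40312065 to 40317989). Likewise, a 29.4-fold peak of 3089 bp covered the 5′ end of COL16A1, with its summit 1355 bp outside, and a 7.92-fold peak covered that of COL12A1. A 17.6-fold peak with its summit 1.82 kb outside COL20A1 reached within 1 kb of its lower-coordinate end. By any overlap, COL9A2, COL16A1 and COL20A1 thus exceeded 10-fold as well. Class medians were taken by summit only. With any overlap of a peak counted, 38 of 42 collagen genes had a peak at an end (background 88.3%), and COL3A1, COL6A3, COL9A1 and COL28A1 had none.

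Of the membrane-spanning collagens, COL23A1 had 49.4-fold at its 5′ end (interval 48.0 to 50.9; chromosome 5, 178588806 to 178591226), with the summit 44 bp before the start. COL13A1, found at neuromuscular junctions, had 18.9-fold at its 3′ end and 16.01-fold at its 5′ end. COL25A1 had 17.4-fold, in a peak that also lay at an end of the divergent transcript COL25A1-DT, and COL17A1, the hemidesmosome collagen of skin, had no summit. Of the short-chain genes, COL8A2 had 12.2-fold, COL10A1 10.02-fold and COL8A1 3.76-fold. COL26A1 had 10.5-fold, and COL28A1 had none.

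**Figure D1:**
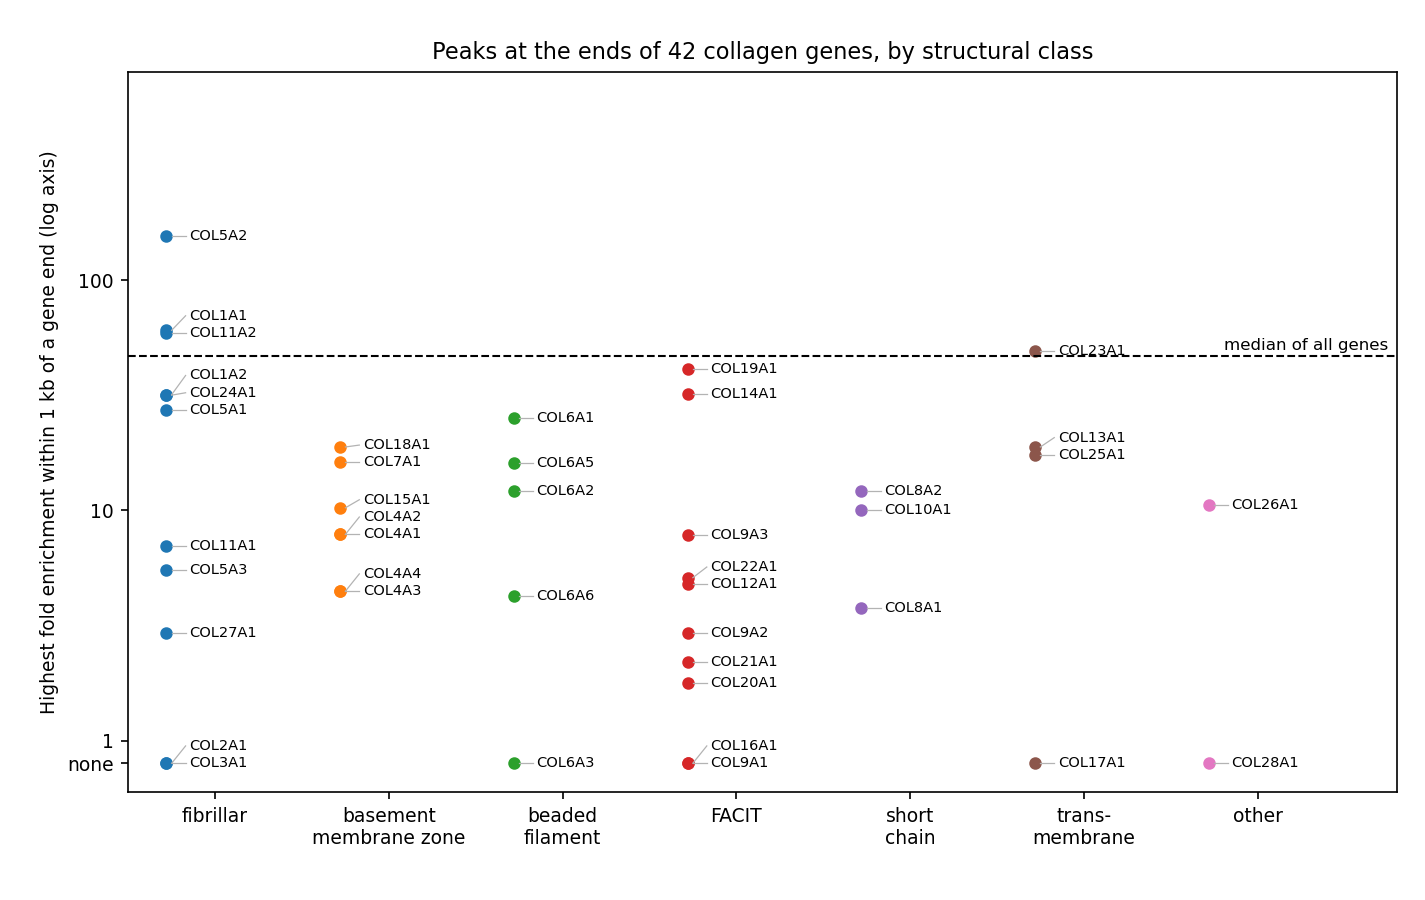
The highest fold enrichment of a peak summit within 1 kb of either gene end (log axis) for each of the 42 collagen genes, grouped by structural class; genes at "none" had no such summit, and the dashed line is the median of all autosomal coding genes, 46.9-fold. COL5A2, COL1A1, COL11A2 and COL23A1 lie above the line, and all FACIT, type VI and basement membrane zone genes lie below it.

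Strand was known for 30 members from the RefSeq promoter table, and not used for the other 12. Of the 30, 23 had a summit at the 5′ end (background 78.6%) and 11 at the 3′ end (background 35.6%), with medians of 7.05-fold and 0; over 15101 genes with a strand the medians were 51.2-fold and 0. The 3′ value was the higher one in 7 collagen genes (COL7A1, COL8A2, COL9A2, COL11A2, COL12A1, COL13A1 and COL26A1), against a background of 9.83%. In COL9A2 and COL12A1 a peak with its summit farther inside covered the 5′ end.

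The low values were most marked at CpG-rich starts. The 30 genes have 41 annotated starts in the table. A summit lay within 1 kb of 30 of the 41 (background 78.3%), and 32 lay under a peak (background 80.3%). Each start was classed by the CpG ratio, observed over expected CpG, of the 300 bases from 250 before to 50 after it. At a ratio of 0.6 or more, 20 of 22 collagen starts (19 genes) had a summit within 1 kb, against 92.1% of 13227 starts of other genes, but their median was 9.10-fold against 90.4-fold. None of the 22 reached the median of the other starts and 3 reached their lower quartile of 31.2-fold. These were the start of COL23A1 and both of COL24A1, which lay under the same peak. Among the 22, the starts of COL9A2 and COL12A1 had no summit within 1 kb but lay under peaks of 78.8-fold and 7.92-fold. At ratios under 0.3, 3 of 9 collagen starts had a summit, against 46.8% of 4519 others, and both medians were 0. Between 0.3 and 0.6 the medians were 4.38-fold for 10 collagen starts and 5.39-fold for 3369 others.

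This difference at CpG-rich starts held when other starts were chosen, in settings added after the data were seen. With the highest start of each gene, medians were 8.93-fold for 19 collagen genes and 94.4-fold for other genes; at a ratio of 0.8 or more, 9.28-fold for 11 collagen starts and 96.8-fold for others. For starts with no other coding gene end within 2 kb they were 14.1-fold for 16 collagen starts and 78.2-fold for others. In none of these did a collagen start exceed the median of the others. The long COL18A1 start, printed above, has a ratio of 0.897 and 18.9-fold, and the shared COL4A1 and COL4A2 starts have ratios of 1.02 and 1.00 and 7.88-fold. COL10A1, the collagen of hypertrophic cartilage, carried a peak at a CpG-poor start: its outermost start has a ratio of 0.128 and a 10.02-fold peak whose summit lay 62 bp away. Its inner starts, with ratios of 0.164 and 0.242, had no summit within 1 kb and lay under no peak. Across the 30 genes, taking each gene's highest start, Spearman's correlation between CpG ratio and fold was 0.25, and across all 21156 starts it was 0.57. Both describe genes of the same peak list that share its depth and base composition.

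**Figure D2:**
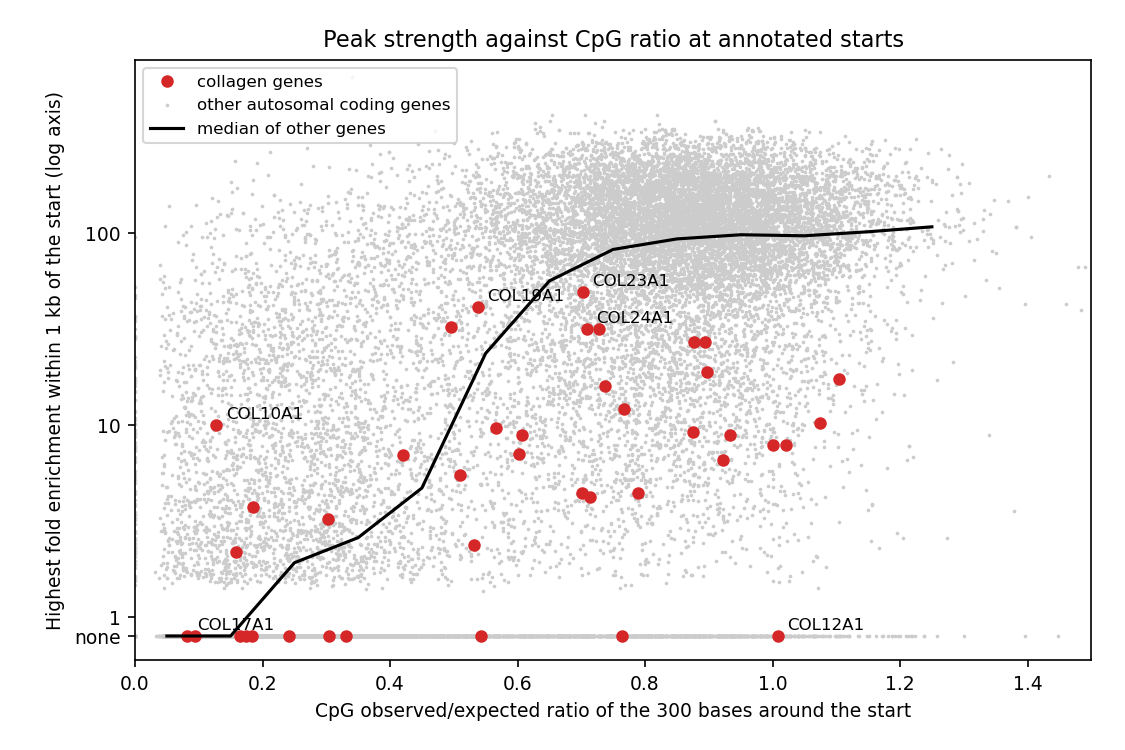
Highest fold enrichment of a summit within 1 kb of an annotated start (log axis) against the CpG ratio of the 300 bases around it, for 41 starts of collagen genes (red), all starts of other autosomal coding genes (grey) and the median of those other starts in steps of the ratio (line); the x axis ends at 1.5 and "none" marks starts without a summit. From a ratio of 0.6 upwards all collagen starts lie below the line.

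Short motifs were counted in the same 300 bases on both strands. CACGTG, the E-box to which MYC and MAX bind, was in 0 of 41 collagen starts and in 8.25% of all 21156 starts. TATAAA was in 8 of 41 (19.5%) and 9.51% of all, at COL6A2, COL6A6, COL7A1, COL10A1, COL13A1, COL17A1 and COL18A1. CCAAT was in 12 (29.3%) and 34.4% of all, among them both COL4A1 and COL4A2, whose windows overlap. GGGCGG was in 23 (56.1%) and 56.6% of all. The AP-1 site TGANTCA was in 1, an inner start of COL10A1 without a peak, and in 6.08% of all. The outermost COL10A1 start, printed above, held none of these motifs. A match is not a bound site, and the absence of these letters from this window says nothing of the factor.

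Over gene bodies, collagen genes spanned a wide range around a median below that of all genes. Leaving out 1 kb at each end, they had a median of 9.58 peaks per 100 kb, with a range of 0 to 44.4, against 13.6 for all genes. Of the 42, 19 exceeded 13.6, as did 8977 of the 17955 coding genes with a body, so this count is near the background. Collagen genes are long, with a median of 133 kb against 24.5 kb, and among other genes those above 200 kb had the lowest peak density. At 100 to 200 kb, 12 collagen genes had a median of 14.8 per 100 kb and 1858 other genes 13.3. Above 200 kb, 12 collagen genes had 6.92 and 1328 others 9.22. At 50 to 100 kb, 6 collagen genes had 6.18 and 2795 others 13.8, and 1 of the 6 (COL16A1, 22.1) exceeded 13.8. At 20 to 50 kb, 10 had 16.2 and 4579 others 15.3.

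The classes differed in body peaks in another order than at their ends. Basement membrane zone genes had the highest median, 20.5 per 100 kb, and 6 of the 7 exceeded the median of all genes: COL7A1 with 44.4, COL18A1 28.2, COL4A2 23.05, COL4A1 20.5, COL15A1 16.8 and COL4A4 14.9. COL4A3 had 4.72, so the 2 chains of this head-to-head pair differed, with 7 peaks over COL4A3 and 29 over COL4A4. Type VI genes were all below the median of all genes, from 2.27 (COL6A3) to 9.40 (COL6A1). Fibrillar genes had a median of 9.16, running from no summit in the 34.3 kb body of COL1A2, and 1.74 at COL11A1, to 32.2 at COL1A1 and 32.01 at COL2A1. The FACIT median was 6.63, with COL9A3 at 39.2 and COL9A2 at 33.8.

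COL23A1 carried the most peaks of any collagen gene. Its 351 kb body held 109 summits, 31.1 per 100 kb. By density it was at the 82.9th percentile of coding genes with a body, below COL7A1, COL9A3, COL9A2, COL1A1 and COL2A1. By number, without regard to length, it was 44th of 17955 coding genes, and peaks covered 27.0% of its body. The strongest, 103-fold and 6211 bp wide (chromosome 5, 178236545 to 178242755), reached over its 3′ end, with the summit 2.11 kb inside. Others of 61.6-fold and 53.5-fold lay 55.0 and 129 kb from the 5′ end. Long genes did not all look like this: COL25A1 (494 kb) had 48 body peaks, 9.76 per 100 kb and none above 17.8-fold, and COL5A2 (409 kb) had 20.

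In most collagen genes a summit inside the gene was stronger than those at its ends. The strongest body peak exceeded the end value in 30 of 42 (71.4%), against a background of 30.9% of genes with a body. In 6 of the 30 (COL2A1, COL9A2, COL12A1, COL17A1, COL23A1 and COL27A1) that peak also reached within 1 kb of an end, and in 24 it did not. Among other genes the share whose strongest body peak exceeded the end value was larger in longer ones. At 100 to 200 kb this held for 12 of 12 collagen genes and 43.2% of others, and above 200 kb for 7 of 12 and 55.9%. COL4A2 had 58.7-fold 203 kb from its start, near its 3′ end, and 54.1-fold and 51.9-fold at 165 and 149 kb. COL15A1 had 56.6-fold and 50.3-fold peaks 116 and 114 kb from its start. COL18A1 had 65.1-fold 6.5 kb from its long start in a peak of 3969 bp, and COL26A1 had 50.1-fold at 28.7 kb. COL6A5 had 47.1-fold, against 16.05-fold at its end. The 38.3-fold peak within COL4A4 also lay inside the overlapping gene RHBDD1. In the 30 genes of known strand, 33.9% of 598 body peaks lay nearest the 5′ end, when each body was cut in 3 equal parts, and 35.3% nearest the 3′ end; for 127972 body peaks of other genes these shares were 35.5% and 31.6%.

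**Figure D3:**
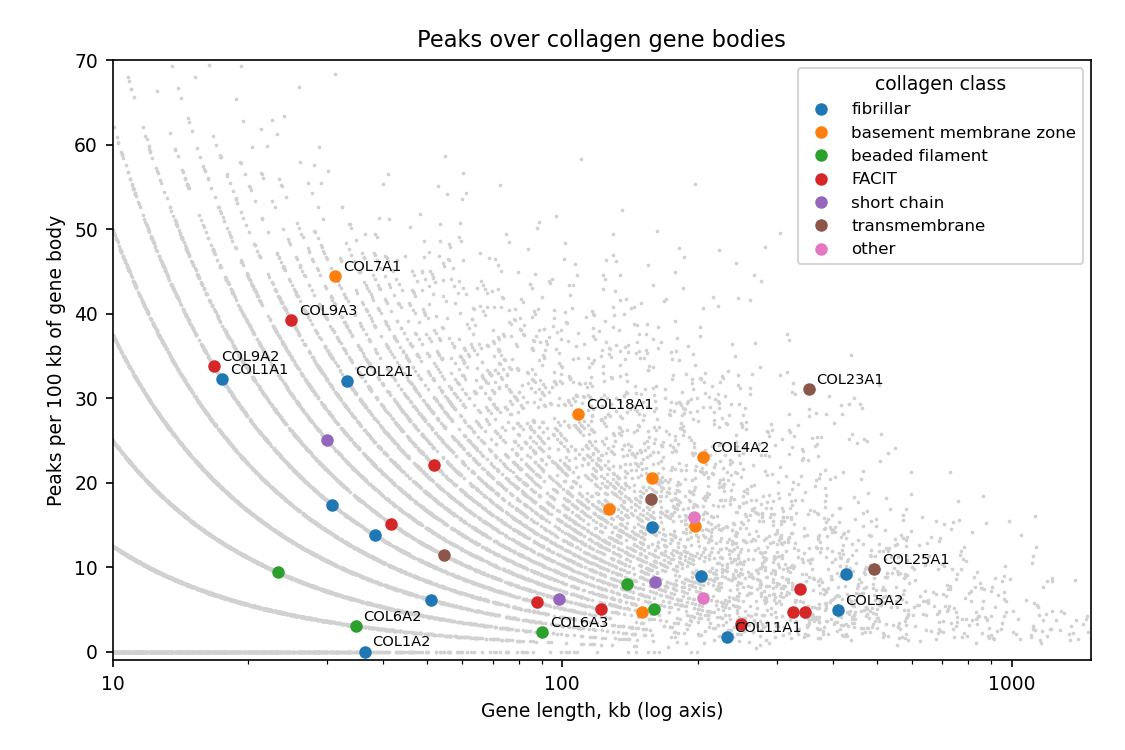
Peaks per 100 kb of gene body against gene length (log axis, 10 to 1500 kb) for the 42 collagen genes, coloured by class, and other autosomal coding genes (grey; values above 70 are not drawn). COL7A1 (44.4) and COL9A3 (39.2) are highest, COL1A2 has 0, and COL23A1 (31.1) stands above the other collagen genes of more than 200 kb.

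Outside the genes, the median peak density was somewhat below that around all genes, but not below that around other genes of like length. Counting summits up to 50 kb outside and leaving out those within 1 kb of any coding gene's end, collagen genes had a median of 12.5 peaks per 100 kb, with a range of 1 to 31, against 14 for all genes; 14 of 42 (33.3%) exceeded 14, against 49.2% of all genes. By gene length, the medians of collagen and other genes were equal: 15 at 20 to 50 kb, 14 at 50 to 100 kb, 13 at 100 to 200 kb and 10 above 200 kb. Under 20 kb, 2 collagen genes had 17.5 and other genes 15. With the flank cut to 20 kb, the medians were 10 for collagen genes and 15 for all genes. The highest were COL15A1 (31), COL4A2 (30), COL18A1 (25), COL9A3 (24) and COL16A1 (23), and the lowest COL21A1 (1), COL6A5 (2), COL3A1 and COL22A1 (3 each). Basement membrane zone genes again had the highest median, 20, and FACIT genes the lowest, 9.5. Of the 5 collagen genes with the strongest such peaks, 4 had theirs inside a neighbouring coding gene: 263-fold within TRAPPC3, 24.4 kb from COL8A2, 231-fold within SFR1, 36.05 kb from COL17A1, 222-fold within PFKFB4, 7.07 kb from COL7A1, and 145-fold within TGFBR1, a TGF-beta receptor gene, 34.2 kb from COL15A1. The 207-fold peak 21.8 kb from COL9A3 lay inside no other gene, at an end of the non-coding gene LOC105372716 and 2.09 kb from MRGBP. Also inside no annotated gene, a 69.5-fold peak of 4560 bp lay 20.9 kb from the 5′ end of COL6A3 (chromosome 2, summit at 237435087). COL3A1 had none above 3.96-fold within 50 kb.

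Peaks between neighbouring collagen genes are given as counts, over gaps of unlike length and with no expected number set beside them. COL3A1 and COL5A2 lie 19.2 kb apart on chromosome 2 with 1 peak of 3.96-fold between them, and COL6A5 and COL6A6, 31.9 kb apart on chromosome 3, had none between them. No peak summit lay in the 2.59 kb between COL19A1 and COL9A1. Between COL6A1 and COL6A2, 93.1 kb apart on chromosome 21, there were 16, of which the strongest was the COL6A2 start peak (12.2-fold). Genes this close share flanking peaks, so their counts are not independent.

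**Figure D4:**
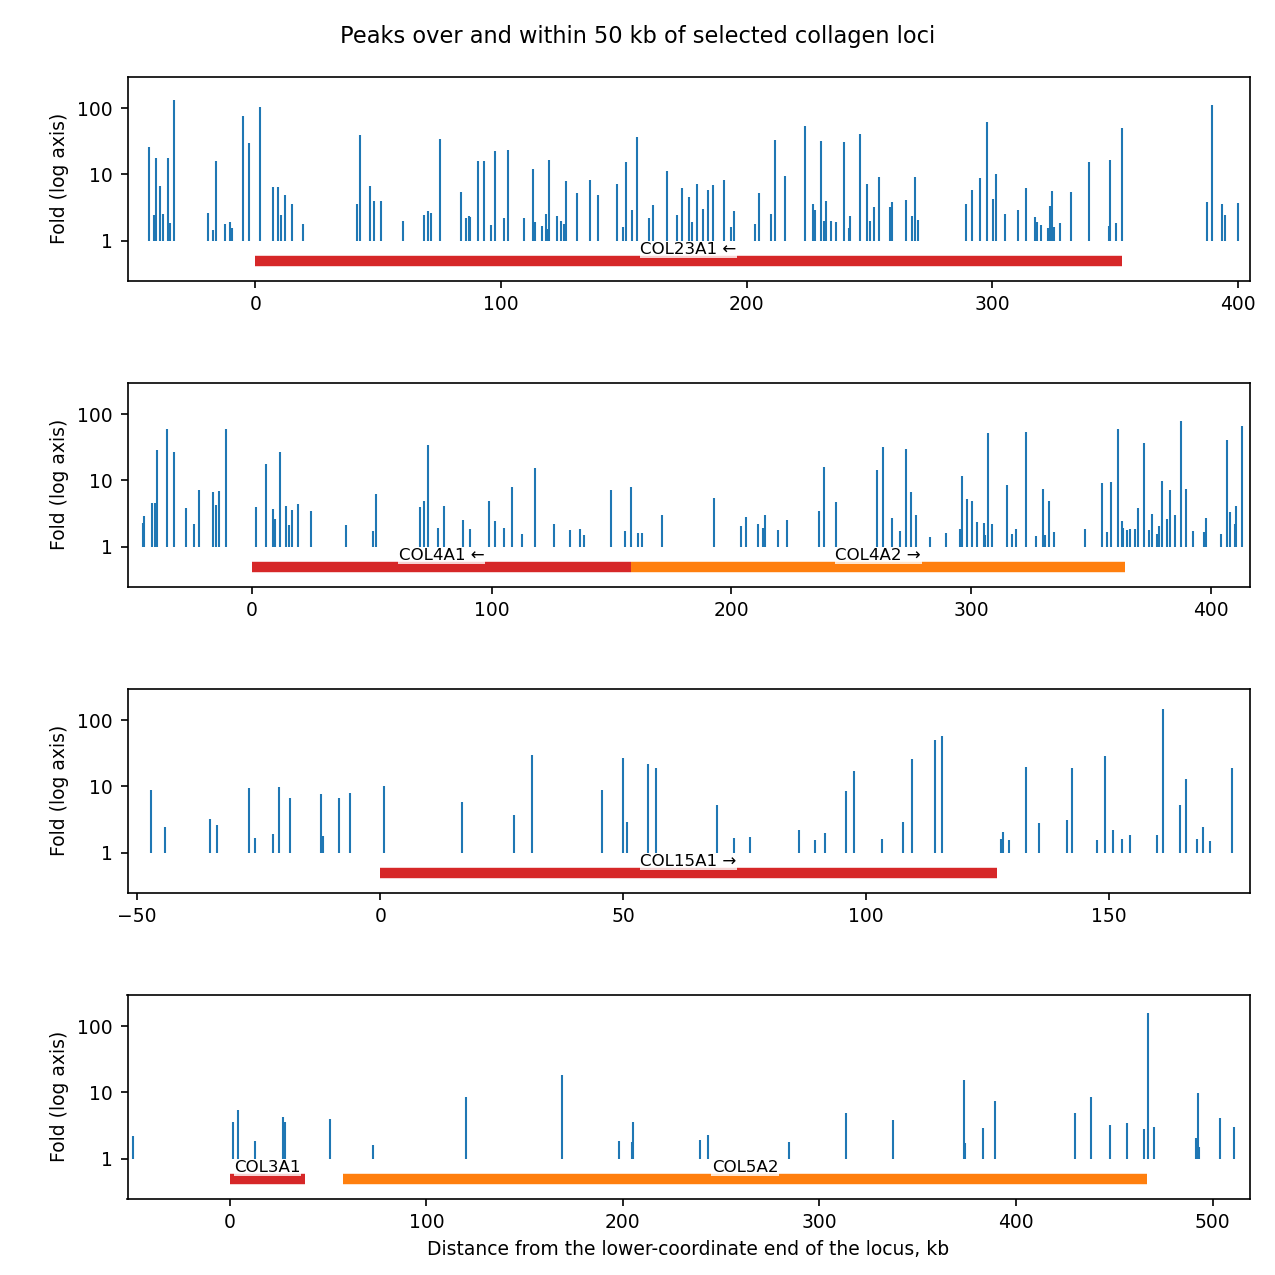
Fold enrichment (log axis) of each peak summit over 4 collagen loci (COL23A1, COL4A1 with COL4A2, COL15A1, and COL3A1 with COL5A2, from top to bottom) and the 50 kb on each side, peaks at other genes' ends included, against distance from the lower-coordinate end of the locus in kb; bars are genes, with arrows for the strand where it was known. COL23A1 and the COL4A1 and COL4A2 pair carry many peaks above 10-fold, whereas over COL3A1 and COL5A2 the only peak above 20-fold is the 155.7-fold one shared with WDR75.

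Genes that modify and assemble collagen had higher end values than the chains themselves, as a description with no test. The 25 processing genes, which hydroxylate, fold, trim and cross-link collagen, had a median end value of 63.1-fold, against 46.9-fold for all genes. A summit lay at an end of 24 (background 83.7%), and 13 of the 25 exceeded the median of all genes, as did 9563 of all 19126. P4HB, the disulfide isomerase subunit of prolyl 4-hydroxylase, had 303-fold, P3H1, a prolyl 3-hydroxylase, 258-fold (shared with C1orf50), PPIB, a cyclophilin of the endoplasmic reticulum, 255-fold and P4HA1, a catalytic prolyl 4-hydroxylase subunit, 181-fold. SERPINH1, the collagen chaperone HSP47, had 67.2-fold. Several of these act on other proteins too. Enzymes that act outside the cell covered a wide range: the lysyl oxidase LOXL1 had 94.03-fold, the procollagen C-proteinase BMP1 63.2-fold (shared with SFTPC), the N-proteinase ADAMTS2 11.6-fold, the C-proteinase enhancer PCOLCE 7.18-fold and LOX 1.74-fold. A 30.7-fold peak with its summit farther off reached the window of LOX. P3H2 had no summit at an end, although an 82.8-fold peak reached its window.

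At CpG-rich starts (ratio of 0.6 or more), collagen genes had a median of 9.10-fold, 21 starts of processing genes 67.2-fold and starts of other genes 90.4-fold. Of the 21, 8 exceeded 90.4-fold. The 10 receptor genes had a median end value of 18.9-fold: the integrin chain ITGB1 had 109-fold, the platelet collagen receptor GP6 73.3-fold (shared with RDH13) and ITGA10 35.9-fold, while DDR2 and the leukocyte receptor LAIR1 had no summit. A 22.1-fold peak with its summit farther off reached the window of LAIR1, and none reached that of DDR2. The 7 genes that cut collagen had 8.26-fold, with MMP14 at 18.1-fold, MMP9 at 13.1-fold and MMP8 at 8.37-fold, and MMP1 and MMP13 without a summit.

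By summit, none of the 3 marker lists had peaks at gene ends more often than all genes, of which 83.7% had a summit at an end and 88.3% a peak by any overlap. Of 8 progenitor markers, 6 had a summit, with a median of 22.8-fold against 46.9-fold for all genes. SPI1 had 109-fold, RUNX1 80.9-fold, KIT 59.8-fold, PTPRC 30.9-fold, CD34 14.8-fold and SPN 3.93-fold, while TAL1 and GATA2 had none. By any overlap all 8 had a peak, from 14.8-fold (CD34) to 118-fold (SPN), with 105-fold at TAL1 and 54.9-fold at GATA2. Their median by any overlap was 73.6-fold, above the 59.0-fold of all genes, so the direction depended on the definition. For mesenchymal and endothelial markers the medians by any overlap were 7.32-fold and 19.2-fold. Of 8 mesenchymal markers, 4 had a summit at an end (PDGFRB 16.5-fold, shared with CSF1R, TWIST1 12.02-fold, LUM 10.1-fold and THY1 1.78-fold), with a list median of 0.889-fold; by any overlap the list ran from 0 (DCN and POSTN) to 60.0-fold (PDGFRB). Of 6 endothelial markers, 5 had a summit (PECAM1 82.9-fold, KDR 28.4-fold, TEK 10.1-fold), with a list median of 8.51-fold; VWF was lowest of these at 4.51-fold, and CDH5 lay under a 33.4-fold peak. The part of other cell types in the collagen peaks was not tested, and fewer cells with an open site cannot be told apart from weaker opening in all cells.

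**Figure D5:**
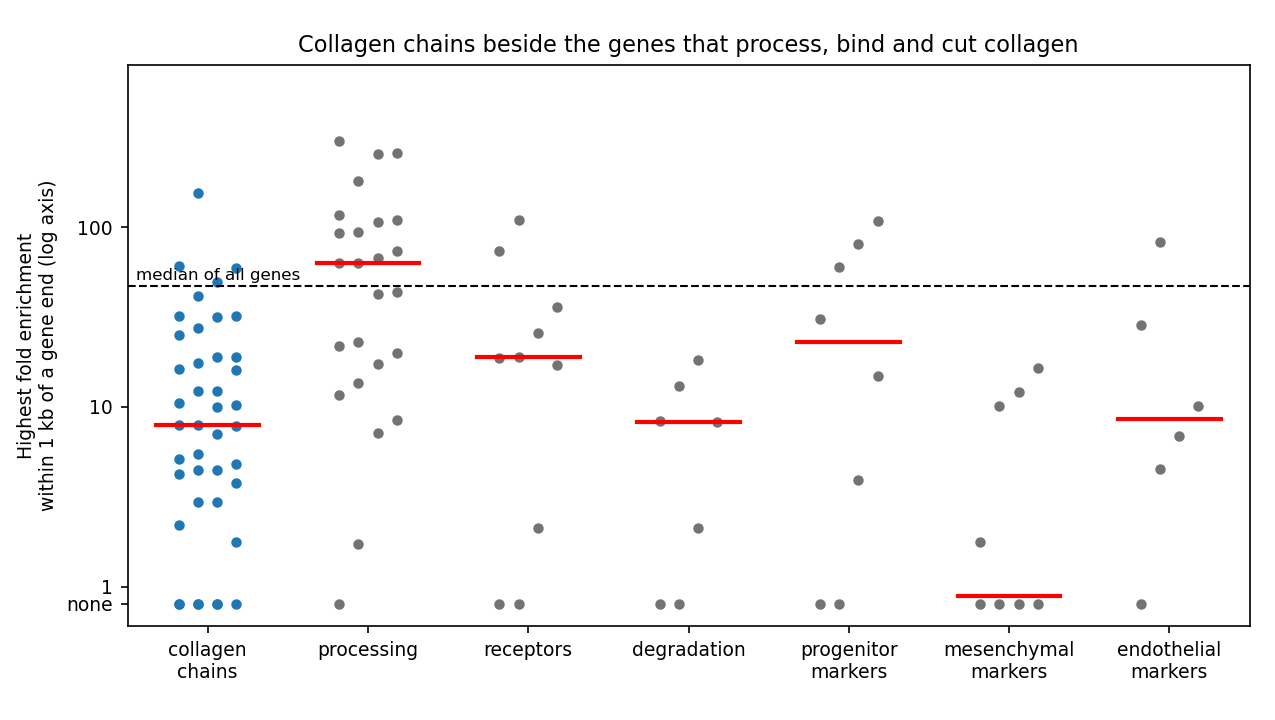
Highest fold enrichment within 1 kb of a gene end (log axis) for collagen chains (blue), the genes that process, bind and cut collagen, and 3 marker lists (grey), with the median of each list (red bar) and of all genes (dashed line); "none" marks genes without a summit. Collagen chains have a median of 7.88-fold and processing genes 63.1-fold.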

How the data were processed

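The labels describe ATAC-seq of 35 libraries, and 1 deposited list of 308732 peaks (301177 on autosomes) was analysed. Per the submitters' processing notes, the tools were Picard 2.2.4, Bowtie2 2.2.8 and Trim Galore 0.6.5, with GRCh38.p13 (hg38) as the genome. MACS 2.1.0 and GENCODE 36 stand in the peak names of the deposited file. Their order, the filters, any transposase shift and the libraries pooled are not given in the sources used here. The deposited list holds a score, a fold enrichment (a linear ratio at the summit), a −log10 p-value and a −log10 q-value per peak. Folds were used as deposited, score and q not at all, and the −log10 p only to rank peaks and find the caller's background. With a background of 93.5 and fold equal to (pileup + 1) / (background + 1), 100% of 234350 pileups came out whole to within 0.1; exact Poisson 95% intervals rest on these. A constant background corrects neither copy number nor mappability, and pooling lets a peak come from a part of the libraries. Depth per library is unknown.

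Genes were taken from a RefSeq table (GRCh38.p14; 42 of 42 collagen and 64 of 64 other listed symbols matched), whose chromosome coordinates patch releases of one build share. Strands and starts came from the RefSeq promoter table (30 of 42). Promoter entries were not matched for COL1A1, COL1A2, COL2A1, COL3A1, COL5A2, COL6A1, COL6A5, COL8A1, COL9A3, COL14A1, COL20A1 and COL22A1, and the protein comparison that was set out was not run. The assignment of peaks to genes was tested on simulated data. No test was run, because 1 list without libraries has no replicates and genes are not replicates of a condition. Members, classes and lists were chosen with earlier results of these data known; every member was named, with full values for the highest in each class, those without a summit and the paired genes, and of the other lists mainly the 3 highest and those without a summit. LOX, LOXL1, BMP1, PCOLCE, ADAMTS2, P4HA1, SERPINH1, PTPRC, CD34, SPN, THY1 and VWF were named after their values were seen, as were CpG and length classes. Alternatives changed the window (0.5 or 2.5 kb), the flank (20 or 100 kb), overlap in place of summits, the starts and bodies used, and the peaks kept (the upper 50% by p-value). Python 3.11.15, numpy 2.4.6, pandas 2.3.3, scipy 1.17.1 and matplotlib 3.10.9 were used.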

Additional observations from a re-analysis of the deposited data

How the results depend on the processing

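The number of collagen genes with a summit at an end was between 25 (0.5 kb window, background 73.1%) and 41 (2.5 kb window, background 91.1%) of 42. By the annotated 5′ end only it was 23 of 30 (background 78.6%). The share of collagen genes was thus below the background with 0.5 kb, at it with 1 kb and above it with 2.5 kb. Their median end value moved with the definition: 3.62-fold with 0.5 kb, 16.1-fold with 2.5 kb, 14.1-fold with any overlap, 7.05-fold at the 5′ end only, 6.26-fold without summits at another coding gene's end and 8.92-fold without the genes that share their strongest one. For all genes these medians were 30.4, 58.3, 59.0, 51.2, 11.2 and 26.4-fold, so collagen genes were lower under each, and the ratio was smallest without shared summits. The median was 7.88-fold with the more significant 50% of the peaks, with the highest annotated start and without COL5A2. Peaks outside the genes had medians of 7 per 100 kb (more significant 50%; all genes 7), 10 (within 20 kb; all genes 15) and 14 (within 100 kb; all genes 14.5). Body peaks had 5.05 per 100 kb (more significant 50%; all genes 5.37), 10.7 (any overlap; all genes 17.6) and 9.53 (whole gene; all genes 14.98). The cause of these shifts was not tested. No paired analysis was possible because the list holds no value for any library, and no replicate could be left out for the same reason. Peaks near the weakest in the list rest on few counts above background, so a gene without a peak is not shown to be closed.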
